A study of Mus musculus with 2 samples.

Results

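Interferon receptors, the regulators that carry their signal and the genes switched on by it were followed in LSK cells, the Lineage(-), Sca1(+), ckit(+) fraction of mouse bone marrow enriched for hematopoietic stem cells and multipotent progenitors. The set was given as 44 gene symbols, 11 of receptors and regulators and 33 of effectors, and each non-control probe whose transcript identifier led to one of these symbols was taken. This gave 55 probes for 43 genes, out of 28319 named probes for 21360 genes. No probe was matched to Mx2. Expression was measured on 1-colour Agilent arrays, with 1 array for LSK cells of nondiabetic mice and 1 array for those of mice made diabetic with streptozotocin (STZ-DM), a toxin of the insulin-secreting β cells. Per array, the labels give 3 female C57BL/6J mice and an input of 8.3 ng total RNA, whereas the methods of the study describe male mice, and no age or time after STZ is given for the arrays. The symbols were chosen by their place in the interferon pathway, with the log2 ratios of these same arrays already known, so that levels and ratios are a description of 2 arrays and no test was made. With 1 array per condition, differences between mice, sorts and amplifications cannot be told apart from diabetes, and fewer cells of a type cannot be told apart from less RNA per cell.

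Interferons are secreted proteins of antiviral defence. Type I interferons bind the receptor made of Ifnar1 and Ifnar2, and interferon γ binds the one made of Ifngr1 and Ifngr2. Janus kinases then phosphorylate STAT proteins, and a complex that holds Stat2 and Irf9 binds the interferon-stimulated response element (ISRE) in promoters of stimulated genes. The products of these genes sense viral RNA, block its translation, degrade it or restrict entry of virus into the cell. In bone marrow, interferons are known to drive quiescent stem cells into the cell cycle, and Sca-1, the antigen used for the LSK gate, is itself encoded by an interferon-inducible gene, Ly6a.

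An intensity is the signal of a spot after the scanner software subtracted background, in arbitrary units, given with the error that the software attached to it. A ratio is diabetic over nondiabetic after each array was scaled to its 75th percentile, 168 for the nondiabetic and 182 for the diabetic one. By the software's flag, 62.7% and 63.9% of non-control spots were well above background. The lowest intensity of a probe that passed this flag was 10.2 on the nondiabetic and 10.1 on the diabetic array. Of 308 negative control spots, 1 passed the flag in nondiabetic LSK cells and 0 did in diabetic ones, with median intensities of 2.35 and 2.32. Where a probe passed this flag on 1 array only, its ratio is counted as a bound. It is the plain ratio where the dim value lay above that lowest intensity. Of the gate's own genes, Kit had intensities of 4635 and 4735 in nondiabetic and diabetic LSK cells, and Ly6a had 475 and 701, giving a log2 ratio of 0.44.

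By its brightest probe, each of the 43 genes had a ratio (40 genes) or a bound (3 genes). A total of 14 genes differed at least 2-fold between nondiabetic and diabetic LSK cells, while 21.1% of all named genes with a ratio or bound did so. Among the 11 receptor and regulator genes, 1 was higher by 2-fold or more on the diabetic array and 2 were lower. Among the 32 effector genes, 5 were higher by that limit and 6 were lower. The corresponding shares over all named genes were 11.0% higher and 10.1% lower. The median log2 ratio was 0.57 for receptors and regulators and 0.45 for effectors, compared with 0.02 over 15192 named genes. Positive ratios were found in 9 of 11 receptor and regulator genes and 22 of 32 effector genes, compared with 51.2% of all named genes. Since the genes were chosen with these values known, nothing is read from the shares or the medians. The values nearest to the 2-fold limit were those of Isg15, the member least far past it with a log2 ratio of -1.03, and of Ifngr2, just short of it with 0.90.

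**Figure D1:**
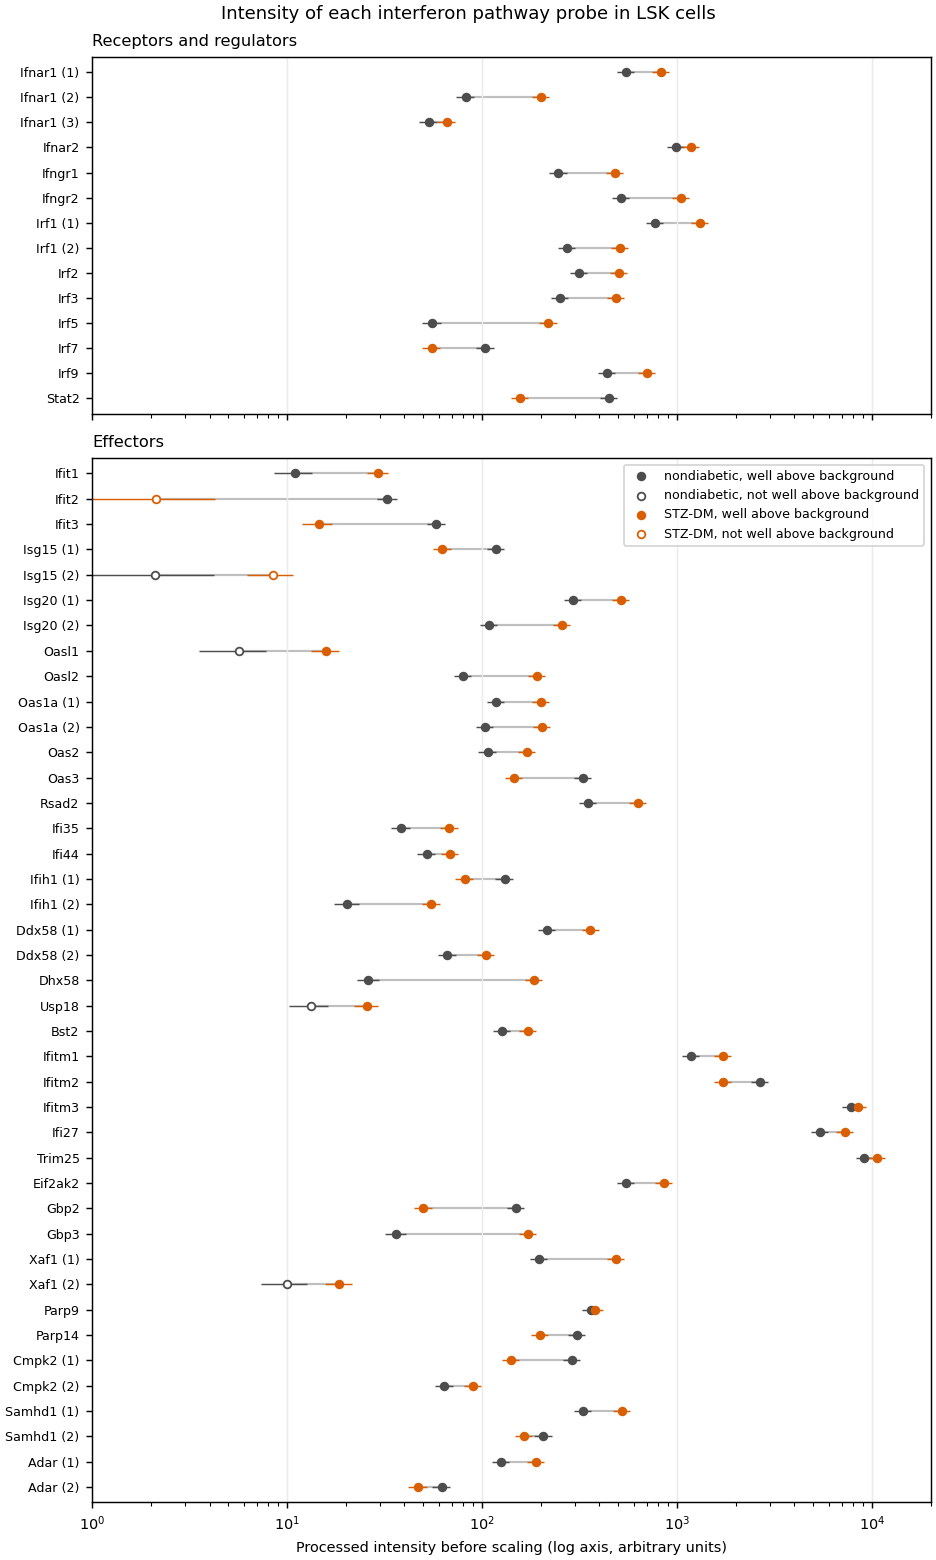
Processed intensity of all 55 probes before scaling (log axis, arbitrary units) in nondiabetic and STZ-DM LSK cells, with the software's error as bars that run to the axis limit where the error is as large as the value. Numbers in brackets order the probes of a gene by signal, and open symbols mark probes not well above background, as for Ifit2 in diabetic LSK cells at 2.13.

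The precision of a single spot was limited by the software's error, which was at least 10% of the intensity. Of the 55 probes, 54 were printed once. Over the 40 genes measured on both arrays, this error gave the log2 ratio an uncertainty of 0.20 to 0.36. For 33 genes the ratio was more than 2 such errors away from 0, 23 of them higher and 10 lower in diabetic LSK cells. The same count was not made over all named genes, so nothing is read from it. The log2 ratios of all named genes had quartiles of -0.41 and 0.47. The 7 genes within 2 errors of 0 were Bst2, Ifi27, Ifi44, Ifitm3, Ifnar2, Parp9 and Trim25. This error covers the spot and not the animals.

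Promoters of the members that passed 2-fold and hold an ISRE are shown first, because the same motif stood in front of genes that were higher and of genes that were lower. The motif was searched as GAAANNGAAA on both strands, with overlapping matches counted, in RefSeq windows of 300 bases, 250 before and 50 after the transcription start (GRCm38.p6). It was found in 3.44% of 32851 windows of this length. Of the 37 members with a window, 16 had a match in any of their windows, 2 of 11 receptors and regulators and 14 of 26 effectors. Counted by window, 16 of 45 member windows (35.6%) had a match. No window was matched for Dhx58, Ifi27, Mx2, Oas2, Parp14, Parp9 and Usp18. Each stretch below runs 5′ to 3′ along the gene's strand, with 20 bases on either side of the outermost matches and the matches in capitals.
Ifit1 (chr19:34640765-34640833, plus strand): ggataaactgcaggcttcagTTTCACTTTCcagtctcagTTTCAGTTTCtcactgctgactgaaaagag
Gbp3 (chr3:142559979-142560034, plus strand): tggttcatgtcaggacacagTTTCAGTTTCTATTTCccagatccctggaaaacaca
Ifit3 (chr19:34583353-34583436, plus strand): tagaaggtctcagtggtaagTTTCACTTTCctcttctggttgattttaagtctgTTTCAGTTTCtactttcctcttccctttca
Isg15 (chr4:156200855-156200916, minus strand): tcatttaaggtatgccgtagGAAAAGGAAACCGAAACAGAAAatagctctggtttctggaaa
Oas3 (chr5:120777705-120777754, minus strand): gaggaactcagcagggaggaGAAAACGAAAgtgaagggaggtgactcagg
Gbp2 (chr3:142620584-142620633, plus strand): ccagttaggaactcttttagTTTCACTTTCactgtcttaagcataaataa
Stat2 (chr10:128270256-128270305, plus strand): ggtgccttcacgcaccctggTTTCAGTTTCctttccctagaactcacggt
Ifit1 and Gbp3 had higher intensities on the diabetic array, whereas those of Ifit3, Isg15, Oas3, Gbp2 and Stat2 were lower. Ifit1 and Ifit3 both carried 2 matches, and their stretches share the letters TTTCACTTTC and TTTCAGTTTC. The first match began 104 bases before the start of Ifit1 and 156 bases before that of Ifit3. The 16 members with a match had a median log2 ratio of 0.17, from -2.13 to 2.13, and the 21 members without a match had a median of 0.55, from -1.82 (the bound of Ifit2) to 1.87. The interferon γ-activated site (GAS), searched as TTCNNNGAA, was found in 13 of 37 members. Counted by window, it was found in 13 of 45 member windows (28.9%), beside 8.30% of all windows. It overlapped an ISRE match in 2 of 45 member windows. A match describes letters in the window and not binding.

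Genes of all 4 receptor chains had higher intensities in diabetic than in nondiabetic LSK cells. Ifngr1 (A_51_P391445), the ligand-binding chain for interferon γ, had 246 ± 25 in nondiabetic and 483 ± 48 in diabetic LSK cells, giving a log2 ratio of 0.85. Ifngr2 (A_52_P471395), its signalling partner, had 517 ± 52 and 1047 ± 105, giving a log2 ratio of 0.90. Both chains of the interferon γ receptor were thus just short of 2-fold. The brightest of 3 probes for Ifnar1 (A_55_P2438722) had 548 ± 55 and 831 ± 83, giving a log2 ratio of 0.48. Its other probes gave 1.17 (A_55_P2454784) and 0.19 (A_55_P2036337), so that the size of the difference depended on the probe while the sign was shared. The value of 0.19 lay within its error of 0.22. Ifnar2 (A_52_P190405) had 983 ± 98 and 1186 ± 119, giving a log2 ratio of 0.15 that lay within its error of 0.20.

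Among the interferon regulatory factors, most were moderately higher in diabetic LSK cells and Irf7 was lower. Irf5 (A_51_P346668), which acts downstream of Toll-like receptors, had 55.3 ± 6.0 and 219 ± 22, which is 3.65-fold higher after scaling. Irf7 (A_51_P421876), which amplifies the production of type I interferon, had 104.1 ± 10.6 and 55.0 ± 5.9, which is 2.05-fold lower. These 2 factors therefore differed in opposite directions. Irf3 (A_55_P2083939), the constitutive factor that starts interferon transcription after viral sensing, had 251 ± 25 and 486 ± 49, giving a log2 ratio of 0.83. Irf1, a factor induced by interferon γ, was measured by probes of different transcripts with log2 ratios of 0.65 and 0.78. Irf2, which competes with Irf1 for its sites, had a log2 ratio of 0.57.

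Stat2 and Irf9, of the complex that binds the ISRE, did not differ alike. Stat2 (A_55_P2059606) had 449 ± 45 in nondiabetic and 156.6 ± 15.8 in diabetic LSK cells, which is 3.11-fold lower. Irf9 (A_55_P2114938), the DNA-binding subunit, had 438 ± 44 and 703 ± 70, giving a log2 ratio of 0.57. Thus Stat2 was lower while Irf9 was higher on the diabetic array. Both genes were measured by 1 spot.

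**Figure D2:**
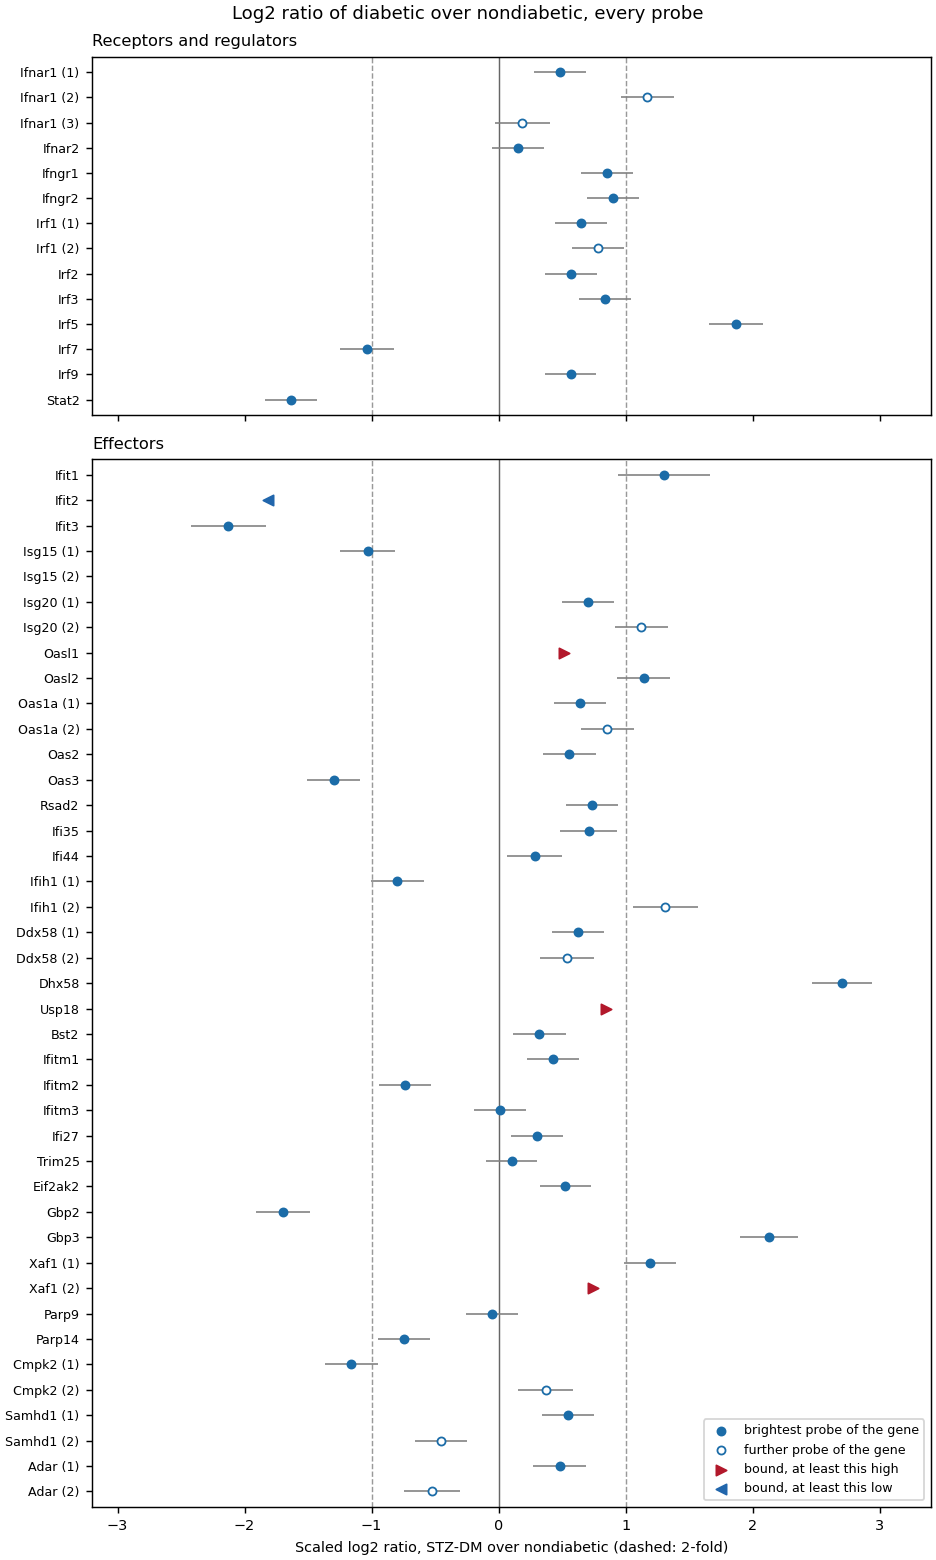
Scaled log2 ratio of diabetic over nondiabetic for every probe, with the error from the software's spot errors; filled symbols are the brightest probe of a gene, open symbols its further probes, triangles are bounds and dashed lines mark 2-fold. Receptors and Irf genes other than Irf7 lie to the right of 0, the effectors lie on both sides between -2.13 for Ifit3 and 2.71 for Dhx58, and Isg15 (2) has no ratio.

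The RNA helicases that sense viral RNA were led by Dhx58. Dhx58 (A_52_P223809), also called LGP2, had 26.1 ± 3.4 in nondiabetic and 184.6 ± 18.6 in diabetic LSK cells, which is 6.52-fold higher and the highest ratio of all members. Ddx58, which encodes RIG-I, gave log2 ratios of 0.62 (A_55_P1965000) and 0.54 (A_52_P385536). For Ifih1, which encodes MDA5, the brighter probe (A_55_P2005783) had 130.4 ± 13.2 and 81.3 ± 8.4, giving a log2 ratio of -0.80. The second probe (A_55_P1978987) had 20.4 ± 2.9 and 54.8 ± 5.8, giving a log2 ratio of 1.31, so that no direction can be given for this gene. Trim25, a ubiquitin ligase that activates RIG-I, had 9157 and 10655, giving a log2 ratio of 0.10.

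The Ifit genes, whose products bind foreign RNA and block its translation, went in different directions. Ifit1 (A_51_P327751) had 11.0 ± 2.4 in nondiabetic and 29.4 ± 3.6 in diabetic LSK cells, which is 2.47-fold higher, with the lower value close to the limit of detection. Ifit3 (A_51_P359570) had 58.4 ± 6.2 and 14.5 ± 2.5, which is 4.37-fold lower. Ifit2 (A_51_P161021) had 32.7 ± 3.9 in nondiabetic LSK cells. On the diabetic array it was not well above background, at 2.13 ± 2.14, so that it was at least 3.53-fold lower. In each of the 3 genes, 1 array gave an intensity near or below the limit of detection. Members of this family are related in sequence, and whether a probe took up transcripts of another member was not tested.

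Of the oligoadenylate synthetases, which activate the RNA-degrading enzyme RNase L, most were higher in diabetic LSK cells. Both probes of Oas1a gave similar ratios, with log2 ratios of 0.64 (A_55_P1998943) and 0.86 (A_55_P1998942), and Oas2 had 0.56. Oas3 (A_51_P472867) had 330 ± 33 and 145.4 ± 14.7, which is 2.46-fold lower. Among the related Oasl genes, Oasl2 (A_51_P387123) had 79.9 ± 8.3 and 191 ± 19, which is 2.21-fold higher. Oasl1 was well above background only in diabetic LSK cells, at 15.8 ± 2.6 compared with 5.65 ± 2.10, and was at least 1.43-fold higher. Among these members, Oas3 alone was lower. Outside the members, Oas1g had a log2 ratio of 0.99 by its brightest probe and Oas1c had -0.06.

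Isg15, a ubiquitin-like protein attached to other proteins after interferon, and Usp18, the protease that removes it, had log2 ratios of opposite sign. The brighter probe of Isg15 (A_55_P2103698) had 118.2 ± 12.1 in nondiabetic and 62.7 ± 6.7 in diabetic LSK cells, which is 2.05-fold lower. Its second probe, at 2.09 and 8.47, passed the flag on neither array. Usp18 (A_55_P2114953) was well above background only in diabetic LSK cells, at 25.8 ± 3.6 compared with 13.2 ± 3.0, and was 1.80-fold higher. This is the plain ratio and not a lower limit, because the dim value lay above the lowest that passed the flag. Under normexp background correction the log2 ratio of Usp18 was 0.05. Isg20, an exonuclease that degrades RNA, had log2 ratios of 0.70 (A_66_P112573) and 1.12 (A_55_P2173892). Both of its probes were higher in diabetic LSK cells.

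The guanylate-binding proteins, GTPases that attack membranes around pathogens, showed opposite differences. Gbp2 (A_51_P203955) had 149.7 ± 15.1 in nondiabetic and 50.1 ± 5.5 in diabetic LSK cells, which is 3.24-fold lower. Gbp3 (A_55_P2472435) had 36.2 ± 4.3 and 171.7 ± 17.3, which is 4.38-fold higher. These genes are also related in sequence, and each was read from 1 spot.

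The Ifitm genes, which restrict the entry of viruses, differed by less than 2-fold. Ifitm3 (A_51_P128876) was the only member printed repeatedly, on 10 spots, and had 7789 in nondiabetic and 8523 in diabetic LSK cells, giving a log2 ratio of 0.01 with an SD of 0.04 between spots. Ifitm1 had a log2 ratio of 0.43 and Ifitm2 one of -0.74, from 2665 ± 266 to 1731 ± 173. Bst2, which tethers budding virus to the cell surface, had 0.32. Ifi27, with 5442 and 7277, had 0.30.

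Of the other effectors, Xaf1 and Cmpk2 passed 2-fold in opposite directions. The brighter probe of Xaf1 (A_55_P1966833), a promoter of apoptosis, had 195.7 ± 19.7 in nondiabetic and 486 ± 49 in diabetic LSK cells, which is 2.29-fold higher. Its second probe was at least 1.68-fold higher. For Cmpk2, a mitochondrial nucleotide kinase, the brighter probe (A_52_P186937) had 290 ± 29 and 141.0 ± 14.3, which is 2.23-fold lower. The second probe (A_55_P2158404) was higher instead, with a log2 ratio of 0.37. Rsad2, which encodes viperin and lies next to Cmpk2 in the genome, had 348 ± 35 and 629 ± 63, giving a log2 ratio of 0.74.

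The remaining effectors were within 2-fold. Log2 ratios were 0.71 for Ifi35, 0.53 for Eif2ak2, which encodes the kinase PKR, 0.28 for Ifi44 and -0.05 for Parp9. Parp14, an ADP-ribosyltransferase, had 306 ± 31 and 198 ± 20, giving a log2 ratio of -0.75. Samhd1, which depletes the nucleotides that viruses need, was read by probes of different transcripts, with log2 ratios of 0.55 (A_55_P2019699) and -0.45 (A_52_P466090). For Adar, which edits double-stranded RNA, the probes gave 0.48 (A_52_P183181) and -0.52 (A_55_P1969078). The direction for Samhd1 and Adar therefore depended on the probe.

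Over the 9 members with at least 2 probes measured on both arrays, the brightest and the next probe had the same sign in 5 genes (Ddx58, Ifnar1, Irf1, Isg20 and Oas1a) and opposite signs in 4 (Adar, Cmpk2, Ifih1 and Samhd1). Over all 3245 named genes with such probes, the same sign was seen in 55.7%. The gap between both probes had a median of 0.69 on the log2 scale in the members and 0.56 over all named genes. Of the 14 members past 2-fold, 11 were read by 1 probe only, so that their direction has no second probe to be set against. Over all probes of the members with a ratio or bound, 9 of 54 were 2-fold or more higher and 8 were 2-fold or more lower, compared with 11.9% and 10.9% of all named probes.

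Further genes of the pathway were taken from lists that do not overlap with the members. Of 16 interferon ligand genes with a probe, 7 had a ratio and 9 passed the flag on neither array, among them Ifnb1, with 7.65 and 3.49, and Ifng, with 4.34 and 2.76. Of all 21360 named genes, 6142 passed it on neither array. None of the 7 differed 2-fold, beside 21.1% of all named genes with a ratio or bound. The ligands with a ratio were Ifnl3 and genes of the interferon α family, which are near-identical copies.

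Among 12 further signalling genes that could be compared, 1 was 2-fold or more higher and 3 were 2-fold or more lower on the diabetic array, beside 11.0% and 10.1% of all named genes. Irf4 (A_55_P2109445), a factor of lymphoid cells, had 65.5 ± 7.1 on the nondiabetic array and, at 2.96, passed no flag on the diabetic one, so that it was at least 7.06-fold lower. Irf8 (A_52_P354823), needed for monocytes and dendritic cells, had 296 ± 30 and 114.2 ± 11.6, which is 2.81-fold lower. Socs3, an inhibitor of JAK signalling, was 2.35-fold lower, and Ifnlr1, a chain of the interferon λ receptor, was at least 2.11-fold higher. Jak1, the kinase that all interferon receptors use, had a log2 ratio of 0.41, and Tyk2 passed the flag on neither.

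Of 12 nucleic acid sensing genes with a ratio, 3 were 2-fold or more higher and 2 were 2-fold or more lower, beside 11.0% and 10.1% of all named genes. Those higher in diabetic LSK cells were the adaptors Ticam1 (3.11-fold) and Myd88 (2.13-fold) and the kinase Tbk1 (2.73-fold), which phosphorylates Irf3. The related kinase Ikbke was 2.50-fold lower. The brightest probe of Tlr7, a receptor for single-stranded RNA, was 2.27-fold lower. Another of its probes, well above background only in diabetic LSK cells, was 3.53-fold higher. Cgas and Sting1, of the pathway that senses DNA, had log2 ratios of 0.28 and -0.01.

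Of 63 further interferon-stimulated genes with a ratio or bound, 12 (19.0%) were 2-fold or more higher and 3 (4.76%) were 2-fold or more lower, beside 11.0% and 10.1% of all named genes, with a median log2 ratio of 0.15. With only probes measured on both arrays, the counts were 6 higher and 3 lower of 55 genes, since the other 6 are bounds. At that setting, 9.44% of all named genes were higher and 8.44% lower. Under normexp background correction the counts were 2 higher and 2 lower, beside 3.96% and 3.29% of all named genes. Slfn1 (A_52_P425890), of a family that restrains cell growth, was well above background only in diabetic LSK cells, at 113.2 ± 11.6 compared with 2.45, and was at least 10.2-fold higher. Gbp4 was at least 5.19-fold higher, likewise with a signal in diabetic LSK cells only. Other genes that were higher included the peptide transporter Tap1 (4.25-fold), the nuclear body protein Sp100 (3.94-fold) and Parp12 (3.28-fold). Trim14 was 3.62-fold higher by its brightest probe and had a log2 ratio of -0.35 by the other. Those that were lower were Gbp6 (4.85-fold, and 3.08-fold by its second probe), Parp11 (4.78-fold) and Tor3a (2.02-fold).

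**Figure D3:**
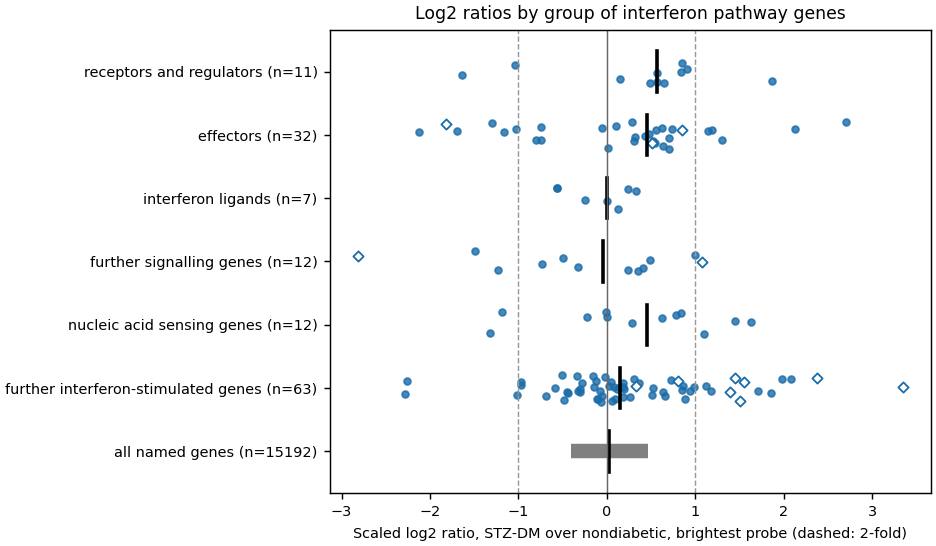
Scaled log2 ratio of diabetic over nondiabetic by the brightest probe, for members and further pathway genes; points are genes, open diamonds are bounds, black bars are medians and the grey bar spans the middle 50% of all named genes. Medians run from -0.05 for further signalling genes to 0.57 for receptors and regulators, and each group except the ligands has genes past 2-fold on both sides.

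**Figure D4:**
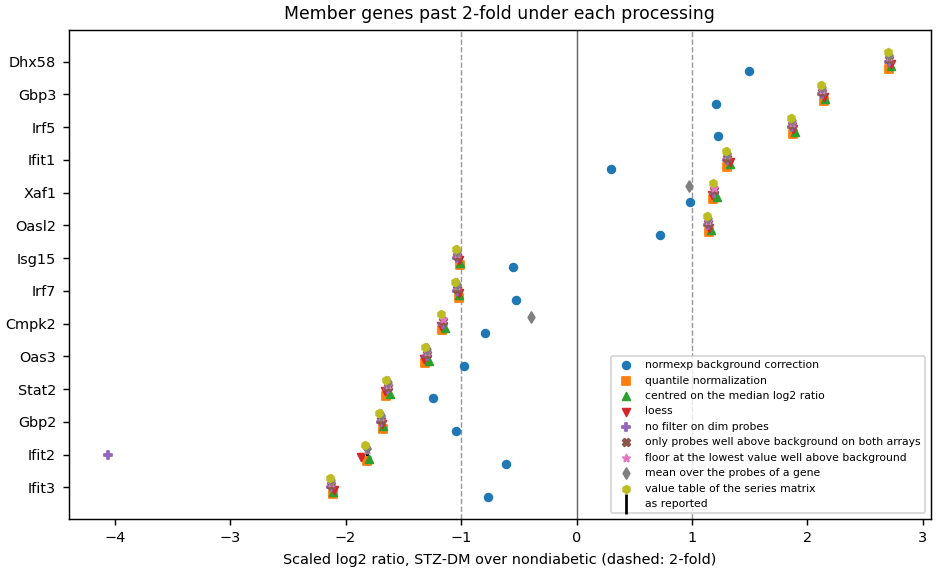
Scaled log2 ratio of the 14 members past 2-fold (dashed lines) as reported and under 9 other ways of processing; points are genes under 1 setting. Values of most settings lie on top of each other, while normexp background correction draws all 14 towards 0, and Ifit2 reaches -4.06 without a filter on dim probes.

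Each of these 14 genes kept its direction under every one of the 9 settings that gave it a value, and Ifit2 has none with only probes measured on both arrays. Several settings could hardly change this. For a probe measured on both arrays, no filter, only such probes and the floor return the same ratio. Median centring and the deposited table shift all ratios alike by a small amount. Normexp left Irf5, Stat2, Dhx58, Gbp2 and Gbp3 past 2-fold, and the mean over the probes of a gene took Cmpk2 to -0.39 and Xaf1 to 0.97.

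Genes listed as markers of other cell types that an LSK gate could hold were summed by list, as intensities before scaling. Whether LSK cells themselves express these genes was not tested, so that a sum does not measure the share of another cell type. Plasmacytoid dendritic cells are known for producing interferon, and 5 of their 6 listed markers summed to 5802 and 6026 in nondiabetic and diabetic LSK cells. Most of this sum came from Siglech, with a scaled log2 ratio of -0.10. By the brightest probes 0 of 4 ratios passed 2-fold and Klk1 was not well above background, while the second probe of Tcf4 was 2.43-fold lower. The second probe of Siglech, well above background only in diabetic LSK cells, was at least 1.70-fold higher. For macrophages and monocytes the sum over 6 of 7 markers was 40314 and 39790, most of it from 1 probe of Itgam. By the brightest probes 5 of these 6 markers had a negative log2 ratio, with a median of -0.40, and Cd68 passed 2-fold at -1.28. The further probes of Itgam were 2.17-fold and 2.46-fold lower, and the second probe of Csf1r was 2.26-fold lower. Adgre1 went the other way, with a log2 ratio of 0.94 by its brightest probe. Its second probe, well above background only in diabetic LSK cells, was at least 2.86-fold higher. The sums were 3226 and 2480 for neutrophils and granulocytes, 217 and 301 for B cells, 1268 and 1274 for T and NK cells, 5709 and 8604 for erythroid cells and 1122 and 1857 for stroma and endothelium. Except for T and NK cells, these differences came mostly from 1 gene each. In that order, these were Mpo (2731 and 1851), Cd79a (39.3 and 121), Hba-a1 (1984 and 4967) and Pecam1 (162 and 936). The median log2 ratio was -0.17 for erythroid markers and -0.28 for those of stroma and endothelium. By the brightest probes, Cd79a, Hba-a1 and Pecam1 were 2-fold or more higher, and S100a8, Cd3d and Col1a2 were 2-fold or more lower. Further probes of the erythroid markers differed in direction. For Tfrc the second probe was 4.13-fold higher and the third 1.06-fold higher. For Ermap the second was 2.87-fold lower, and the third, well above background only in diabetic LSK cells, was at least 2.92-fold higher. The part of all these markers in the interferon values was not tested. Both arrays lay on 1 slide.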

How the data were processed

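LSK cells were sorted by the authors, and their RNA was amplified, labelled with Cy3 and hybridized to 2 Agilent arrays. The authors deposited 1 file per array from Agilent Feature Extraction, version 11.5.1.1 (grid build mm9), with intensities and their errors corrected for background within the array and not normalized between arrays. They also deposited a table of intensities, in which each column was the processed intensity times 1 constant (log2 factors of 3.48 and 3.35). Its normalization is not given in the sources used here.

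Values were log2 intensities less the 75th percentile of the non-control spots of that array. Outlier spots by the software's flags were dropped from both arrays (192 and 147), and spots of a probe were averaged. Probes were named by unversioned transcript identifiers through RefSeq (GRCm38.p6), which led 31845 of 59305 non-control spots to a gene, and the brightest probe stood for a gene. For a bound, the dim side was set to the array's lowest value that passed the background flag, or to the probe's own where that was higher. The members, the further gene lists and the 2-fold limit were chosen with earlier results of these data known. All members were named with every probe; of the further pathway genes, those past 2-fold were to be named, with Jak1 and Tyk2, and not all of them are. Some genes of the pathway are not reported here. No test was possible with 1 array per group, and precision is limited by that number. The spot SD of a log2 ratio had a median of 0.13 over 237 probes with at least 5 spots. The steps were tested on simulated data. Alternatives were normexp (offset 50, from median spot signals), quantile normalization, centring on the median ratio, loess, no filter on dim probes, only probes measured on both arrays, a floor, the mean over probes and the deposited table. Python 3.11.15, numpy 2.4.6, pandas 2.3.3, R 4.3.3 and limma 3.58.1 were used.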

Additional observations from a re-analysis of the deposited data

How the results depend on the processing

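No paired analysis was possible because the groups hold a single array each, and for the same reason no array could be left out. Of the 14 members past 2-fold, 14 kept side and limit with quantile normalization, median centring, loess, no filter on dim probes, the floor and the deposited table, 13 with only probes measured on both arrays (Ifit2 has no ratio there), 12 with the mean over probes (Xaf1 and Cmpk2 fell short) and 5 under normexp (Irf5, Stat2, Dhx58, Gbp2 and Gbp3). The sign of none of the 14 turned under these 9 alternatives, several of which could hardly turn it, while Ifih1 and Adar turned with the mean over probes. Under normexp, 1 receptor or regulator gene was at least 2-fold lower, 2 effectors were higher and 1 lower, the effector median was 0.29, and 2 further interferon-stimulated genes were higher, while over all named genes 597 were higher and 497 lower in place of 1667 and 1538. This setting differs in input signal, background model and offset together, and the cause was not tested. With only probes measured on both arrays, 6 further interferon-stimulated genes were higher, since bounds are left out, beside 9.44% of all named genes. With the mean over probes the effector median was 0.31. Without a filter, Ifit2 had a log2 ratio of -4.06. Signal over background limits Ifit2, Oasl1 and Usp18, which were well above background on 1 array only.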

Other observations

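Genes of antigen presentation, which interferon γ is known to induce, were read after the members. Of Tap1, Tap2, Psmb8, Psmb9, Psmb10, B2m, Nlrc5 and Ciita, Tap1 alone passed 2-fold by its brightest probe, from 14.2 ± 2.7 in nondiabetic to 65.6 ± 7.0 in diabetic LSK cells. Tap2, its partner in the peptide transporter, had a log2 ratio of 0.51. The immunoproteasome subunits Psmb8, Psmb9 and Psmb10 had 0.64, 0.12 and -0.45, and B2m, the light chain of class I molecules, had 0.05 at intensities of 6659 and 7503. Nlrc5, the regulator of class I genes, had 0.72 by its brightest probe and -0.36 by the other, and Ciita, the regulator of class II genes, had -0.31.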
